A study of Mus musculus with 16 samples.

Results

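The transcripts of 10 transport proteins that define the blood-brain barrier were followed in RNA-seq of mouse brain microvascular endothelial cells (mBMEC): Slc2a1, Slc16a1, Mfsd2a, Slco1a4, Slco1c1, Slco2b1, Abcb1a, Abcg2, Abcc4 and Tfrc. They were taken as a list of names, 10 of the 54193 genes summed, and all 10 passed the filter on low counts. The mBMEC came from adult mice, 8 to 10 weeks old, that carried Cdh5(PAC)-CreERT2, a tamoxifen-inducible recombinase driven by the endothelial Cdh5 promoter, and floxed Pdcd10 (Pdcd10 fl/fl, Pdcd10 being the gene of CCM3). All cultures were pools of several brains, were selected with puromycin and were used at passage 2. The 16 libraries were 3 WT (without 4-hydroxy-tamoxifen), 2 WT+P, 2 WT+R, 3 KO (recombined in culture with 4-hydroxy-tamoxifen), 3 KO+P and 3 KO+R. Here +P stands for propranolol at 10 µM and +R for rapamycin at 100 nM, and both drugs were left on the cells for 24 h. Exposure to 4-hydroxy-tamoxifen and loss of Pdcd10 cannot be told apart in this design.

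The endothelium of brain vessels is sealed by tight junctions, so that nutrients enter the brain through carriers and receptors while ATP-driven pumps return lipophilic compounds to the blood. Glucose, lactate, lysophosphatidylcholine, thyroid hormone and iron each have their own route, and loss of these routes in culture is a known limit of isolated brain endothelial cells. Propranolol is a β-adrenergic receptor blocker and rapamycin an inhibitor of mTORC1, the kinase complex that couples nutrient supply to growth. Cerebral cavernous malformations, which follow from loss of a CCM gene such as Pdcd10, are leaky vessels, and the comparisons here ask how the transport genes stood after loss of Pdcd10 and after each drug.

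Levels are given as CPM, counts scaled to a fixed library total and normalised with TMM factors, and levels of different genes are compared as TPM, the transcript share that corrects for transcript length. The libraries held 18.83 to 26.2 M counts. The 12 endothelial markers summed to 6371 to 12491 TPM and each had a median of at least 1 TPM. Of the 11 mural markers, Rgs5, Kcnj8, Abcc9, Vtn and Higd1b were below 1 TPM in every library, while the list summed to between 61.7 and 2584 TPM, mostly Tagln and Acta2, with 1388 and 2584 in WT+R and 435 and 1548 in WT+P. Summed levels were 2.03 to 60.1 TPM for fibroblast, 16.7 to 60.7 for astrocyte, 0.342 to 1.68 for microglia and macrophage, 0.34 to 1.1 for oligodendrocyte, 0.109 to 2.07 for neuron and 2.76 to 28.0 for choroid plexus markers, with Gfap, Aqp4, Slc1a3, Slc1a2, Ttr, Folr1 and Kl below 1 TPM throughout. Pdcd10 lay between 7.83 and 16.7 CPM in the 9 KO libraries and between 27.7 and 60.8 in 6 of the 7 WT libraries. The library labelled WT replicate 1 held 11.5 CPM, at the level of the KO libraries, so for several members results are also given without it. Libraries with the same replicate number deviated from their group means together (median correlation 0.52 over 36 pairs), so values are also read within a replicate number. It exists as 1, 2 and 3 in WT, KO, KO+P and KO+R and as 1 and 2 in WT+P and WT+R. The tests leave this pairing out unless the replicate number is named as a block.

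Slc2a1, the glucose carrier GLUT1, led with 301 to 634 TPM and alone held 56.2 to 73.5% of the TPM summed over the 10 genes. The efflux pumps Abcg2 (47.0 to 148 TPM) and Abcb1a (40.1 to 102 TPM) came next and overlapped each other. Tfrc (18.5 to 29.8 TPM) and Slco1a4 (0.111 to 86.2 TPM) overlapped in the middle, where Tfrc had the narrowest range of the set and Slco1a4 the widest among genes counted in every library. Slco2b1 (0.685 to 34.2 TPM), Abcc4 (4.67 to 10.6 TPM) and Slc16a1 (3.87 to 17.3 TPM) could not be ordered beyond their spread. Mfsd2a (0 to 2.4 TPM) and Slco1c1 (0.101 to 2.09 TPM) were near the limit of detection, although both mark brain endothelium in vivo.

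**Figure D1:**
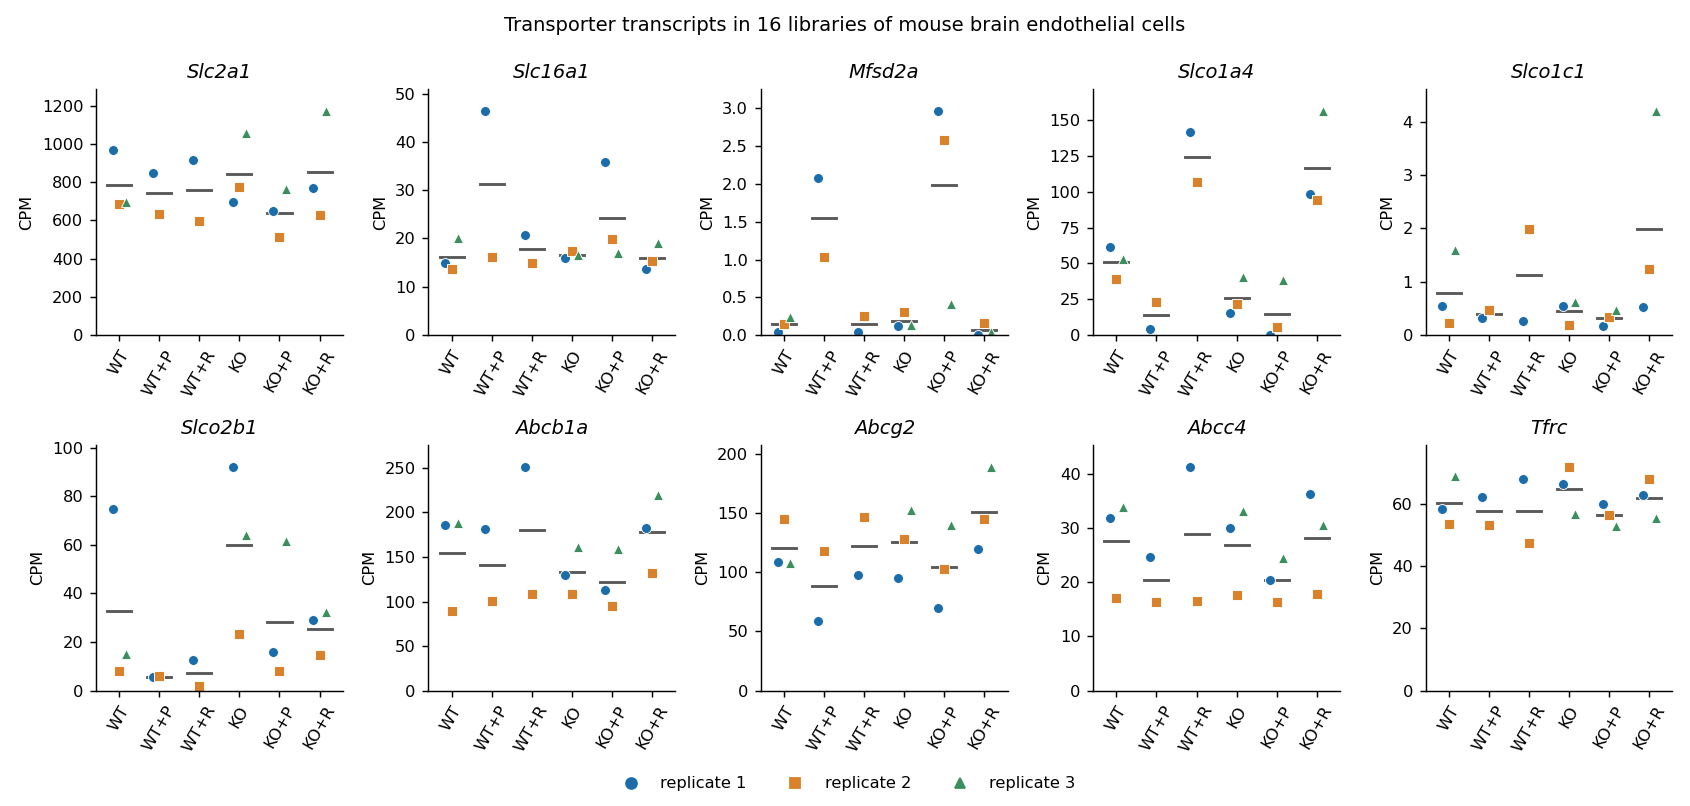
Each panel plots the CPM of a transport gene (linear axis from 0) in the 16 libraries by group; symbols give the replicate number and the grey line the group mean. Mfsd2a stands high in the propranolol groups, Slco1a4 in the rapamycin groups, and Tfrc stays between 47.4 and 71.7 CPM in all libraries.

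Mfsd2a (chr4:122840643-122855244, minus strand, GRCm39) encodes the carrier of lysophosphatidylcholine that brings docosahexaenoic acid into the brain and restrains transcytosis in brain endothelium. Its promoter is shown because its counts lay highest in the propranolol libraries and near 0 elsewhere. The window runs from 270 bases before to 30 after the start of its most counted transcript (chr4:122854952-122855251, GRCm39, minus strand), and capitals mark matches to the motifs searched.
Mfsd2a: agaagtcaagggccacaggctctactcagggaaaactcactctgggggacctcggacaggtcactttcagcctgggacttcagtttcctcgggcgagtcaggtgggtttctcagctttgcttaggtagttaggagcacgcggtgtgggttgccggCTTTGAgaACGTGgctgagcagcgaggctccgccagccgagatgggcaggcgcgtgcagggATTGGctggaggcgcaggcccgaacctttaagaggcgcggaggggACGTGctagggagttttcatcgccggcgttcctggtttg
Both strands were searched for 7 motifs. They were the core of the hypoxia response element (ACGTG), the E-box that contains this core (CACGTG), the CARE site bound by ATF4 (TGATGNAA), a TCF/LEF site (CTTTGA), a forkhead site (GTAAACA), the CCAAT box and the TATA box (TATAAA). The Mfsd2a window held the hypoxia core in 2 places, the TCF/LEF site in 1 and the CCAAT box in 1, printed on this strand as ATTGG. Of the 13112 windows of the same length at tested protein-coding genes, 24.4% held the hypoxia core, 13.8% the TCF/LEF site and 39.6% the CCAAT box, while 9.37% held the E-box, 2.5% the CARE site, 2.88% the forkhead site and 8.59% the TATA box. Its GC content was 61.0% with 20 CpG, against medians of 57.0% and 15 over all windows.

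Mfsd2a was counted at 1, 4 and 6 in WT, 45 and 26 in WT+P, 1 and 6 in WT+R, 3, 8 and 3 in KO, 71, 62 and 8 in KO+P, and 0, 4 and 1 in KO+R, in the order of the replicate numbers. On the CPM scale the propranolol libraries were above all untreated and rapamycin libraries, and KO+P replicate 3, whose 8 counts equalled those of KO replicate 2, was the lowest of the 5. Mfsd2a passed the filter on low counts through the propranolol libraries, so that a difference between them and the rest was built into its being tested. In CPM the means were 0.147 ± 0.1 (SD, n = 3) in WT, 1.55 ± 0.746 (n = 2) in WT+P, 0.184 ± 0.104 (n = 3) in KO, 1.98 ± 1.37 (n = 3) in KO+P and 0.0695 ± 0.0848 (n = 3) in KO+R. The ratio of summed counts per depth was 10.0 for WT+P to WT (exact 95% interval 5.27 to 21.0), 11.2 for KO+P to KO (6.44 to 20.9) and 27.5 for KO+P to KO+R (11.5 to 86.0), intervals that cover counting error only.

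Slc16a1 (chr3:104545811-104565780, plus strand), the lactate and ketone body carrier MCT1, was at 15.0, 13.7 and 20.1 CPM in WT and 15.9, 17.5 and 16.6 in KO. With propranolol it stood at 46.3 and 16.2 CPM in WT+P and at 35.8, 19.8 and 16.9 in KO+P. The 2 replicate 1 libraries with propranolol were the highest of all 16, and the other propranolol libraries lay among the untreated ones. With rapamycin the values were 20.8 and 15.0 CPM in WT+R and 13.6, 15.4 and 19.0 in KO+R, overlapping the untreated cells.

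Slc2a1 (chr4:118965908-118996365, plus strand) was at 967, 687 and 696 CPM in WT, 849 and 635 in WT+P, 918 and 599 in WT+R, 697, 774 and 1058 in KO, 647, 512 and 763 in KO+P, and 768, 629 and 1170 in KO+R. All groups overlapped, and the KO+P mean of 641 ± 126 CPM (n = 3) was the lowest while the other group means lay between 742 and 856. The share of the set's TPM held by Slc2a1 was highest in the replicate 1 libraries with propranolol (73.5 and 72.2%).

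Among the genes counted in every library, the 3 organic anion carriers showed the widest ranges. Slco1a4 (chr6:141751165-141802036, minus strand), known as OATP1A4 and as a carrier of bile acids, steroid conjugates and drugs in brain vessels, is shown with its promoter (chr6:141802007-141802306, GRCm39, minus strand, 270 bases before to 30 after the start), since its levels ran opposite to those of Mfsd2a.
Slco1a4: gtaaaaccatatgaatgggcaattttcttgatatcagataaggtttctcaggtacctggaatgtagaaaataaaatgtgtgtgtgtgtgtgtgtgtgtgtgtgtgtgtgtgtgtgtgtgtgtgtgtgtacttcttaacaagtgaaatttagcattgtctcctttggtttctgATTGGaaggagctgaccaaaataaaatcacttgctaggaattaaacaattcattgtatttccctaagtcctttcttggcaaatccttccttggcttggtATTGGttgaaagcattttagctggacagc
This window held the CCAAT box in 2 places, both printed as ATTGG, and no match to the other 6 motifs. It held 38.0% GC and 0 CpG.

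Slco1a4 was at 61.6, 38.9 and 53.4 CPM in WT, 4.53 and 22.9 in WT+P, and 142 and 107 in WT+R. In Pdcd10-deleted cells it was at 15.5, 21.9 and 40.4 CPM in KO, 0.208, 5.38 and 38.4 in KO+P, and 98.6, 94.3 and 156 in KO+R. Every rapamycin library lay above every library without rapamycin, and within each replicate number the order was propranolol, untreated, rapamycin. The rapamycin value was 6.38, 4.31 and 3.86 times that of KO and 2.3 and 2.75 times that of WT within replicate numbers. Propranolol values were lower by factors of 74.2, 4.07 and 1.05 in KO and 13.6 and 1.7 in WT, so the KO replicate 3 pair hardly differed. The KO libraries were lower than the WT libraries of the same number in all 3 pairs, with means of 25.9 ± 13.0 and 51.3 ± 11.5 CPM (n = 3 each). The factors were 3.99, 1.78 and 1.32, the largest with the library labelled WT replicate 1. Of all genes, 22.2% were lower in KO in every pair.

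Slco2b1 (chr7:99306783-99360547, minus strand), or OATP2B1, carries sulphated steroids and many drugs. It was at 74.9, 7.88 and 15.2 CPM in WT and 92.0, 23.2 and 64.1 in KO, so KO exceeded WT within every replicate number, by factors of 1.23, 2.94 and 4.23. The smallest factor belonged to the library labelled WT replicate 1. Of all genes, 21.3% were higher in KO in every pair. With propranolol Slco2b1 stood at 5.6 and 5.95 CPM in WT+P and 15.7, 8.13 and 61.5 in KO+P, and with rapamycin at 12.7 and 1.8 in WT+R and 29.0, 14.6 and 32.4 in KO+R. Each drug library was thus below the untreated library of its number, KO+P replicate 3 only by a factor of 1.04.

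Slco1c1 (chr6:141469705-141516710, plus strand), the thyroxine carrier OATP1C1, held 4 to 94 counts per library. It was at 0.552, 0.224 and 1.6 CPM in WT, 0.542, 0.19 and 0.622 in KO, 0.529, 1.23 and 4.19 in KO+R, and 0.167, 0.333 and 0.465 in KO+P. The WT+P libraries held 0.324 and 0.473 CPM and the WT+R libraries 0.269 and 1.98. The KO+R replicate 3 library was the highest of all, and the ratio of summed counts per depth was 4.61 for KO+R to KO (exact 95% interval 3.13 to 6.97, counting error only).

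**Figure D2:**
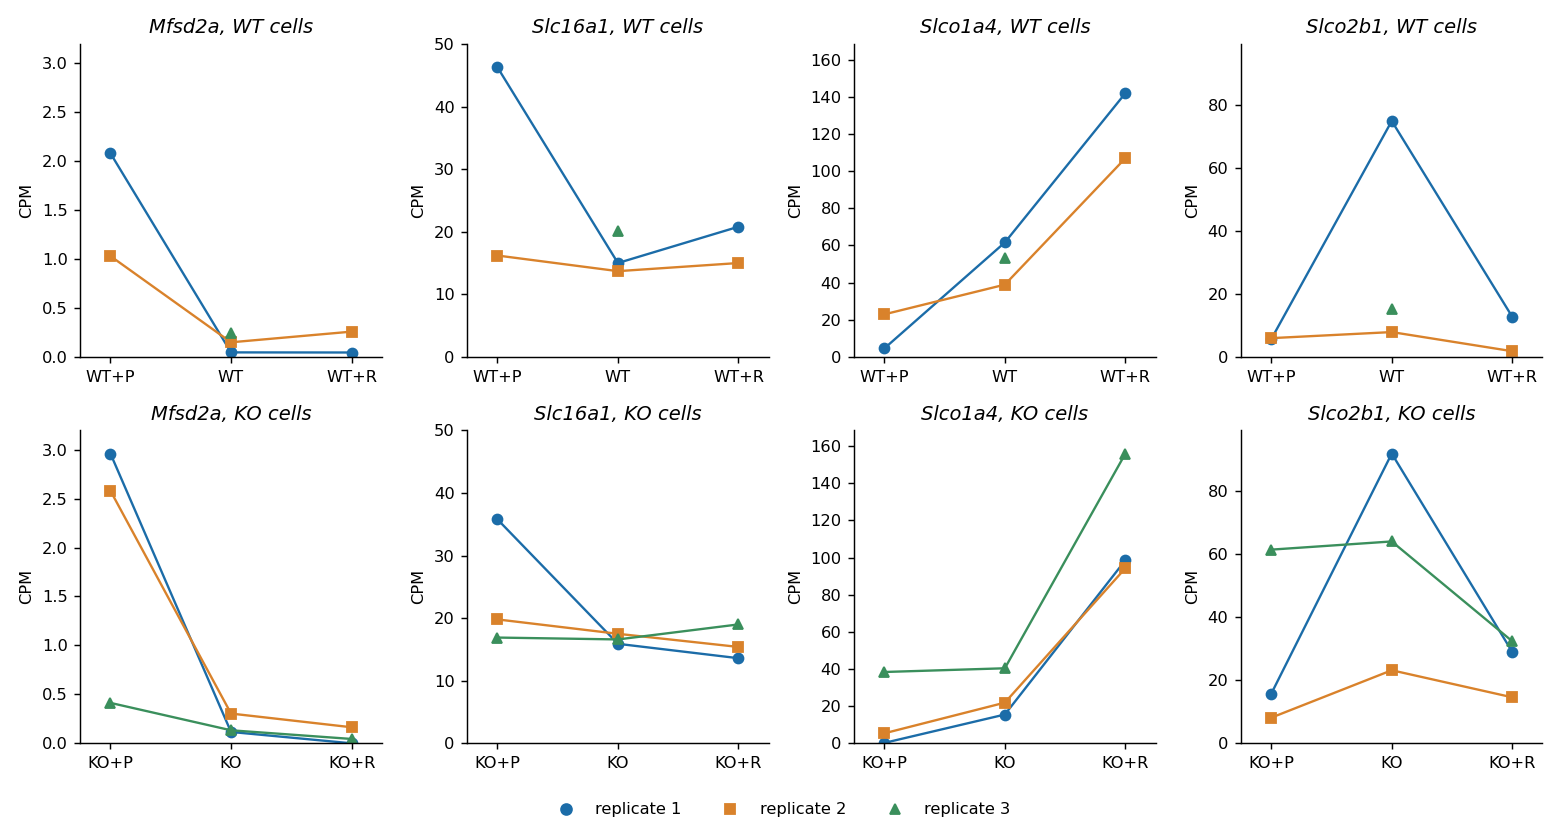
CPM (linear axes from 0) of 4 transport genes in WT cells (upper row) and KO cells (lower row) with propranolol, untreated and with rapamycin; lines join libraries with the same replicate number, and WT replicate 3 has no drug library. Slco1a4 climbs from propranolol to rapamycin along each of the 5 lines, and Slco2b1 is highest in the untreated library of each.

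Among the ATP-driven pumps, Abcb1a (chr5:8710022-8798575, plus strand) encodes the P-glycoprotein of mouse brain endothelium. It was at 186, 89.1 and 188 CPM in WT, 130, 108 and 161 in KO, 181 and 101 in WT+P, 113, 94.8 and 159 in KO+P, 251 and 109 in WT+R, and 183, 132 and 220 in KO+R. Replicate 2 was the lowest of its group in all 6 groups, and rapamycin libraries were above the untreated library of the same number in 5 of 5 pairs. Its near relative Abcb1b, to which shared reads could be assigned, was at 13.9 to 87.0 CPM. Abcg2 (chr6:58561505-58672661, plus strand), the breast cancer resistance protein, was at 109, 145 and 108 CPM in WT and 95.6, 128 and 153 in KO. It was at 58.9 and 118 CPM in WT+P, 69.7, 103 and 140 in KO+P, 98.0 and 147 in WT+R, and 120, 145 and 189 in KO+R, below the untreated library in each of the 5 propranolol pairs. Abcc4 (chr14:118720103-118943924, minus strand), which exports cyclic nucleotides and organic anions, had means between 20.5 and 28.9 CPM in the 6 groups. Its replicate 2 libraries lay between 16.3 and 17.8 CPM in all groups, below every replicate 1 and 3 library (20.5 to 41.3).

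Tfrc (chr16:32427556-32451612, plus strand), the transferrin receptor that takes up iron and serves as the entry for many brain-directed antibodies, was the flattest member, with a highest TPM 1.61 times the lowest. It was at 58.1, 53.5 and 68.7 CPM in WT, 66.2, 71.7 and 56.5 in KO, 62.0 and 53.0 in WT+P, 59.8, 56.2 and 52.7 in KO+P, 67.8 and 47.4 in WT+R, and 62.6, 67.9 and 55.2 in KO+R. Its mRNA is known to be stabilised through iron-responsive elements in its 3′ UTR, hairpins with a CAGTGN loop. A search of the coding transcript for C, 5 stem bases, CAGTGN and 5 bases that pair with the stem (G with T allowed) found 4 matches of 17 bases, all in the 3′ UTR. They are printed with the loop in capitals.
Tfrc element 1 (chr16:32450043-32450059, GRCm39, plus strand): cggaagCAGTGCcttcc
Tfrc element 2 (chr16:32450422-32450438, GRCm39, plus strand): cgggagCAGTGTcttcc
Tfrc element 3 (chr16:32450487-32450503, GRCm39, plus strand): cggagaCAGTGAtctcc
Tfrc element 4 (chr16:32450534-32450550, GRCm39, plus strand): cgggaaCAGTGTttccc

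Genotype was compared first, to ask whether loss of Pdcd10 moved the barrier transporters. In untreated cells none of the 10 genes was called, at an adjusted p (edgeR quasi-likelihood test, Benjamini-Hochberg over all 14838 genes tested) under 0.05 with a fold change above 1.5, where 0.00674% of all genes were called. DESeq2, which gave no adjusted p for Slco1a4 in any contrast, called 0 as well. In this comparison DESeq2 also gave no adjusted p for Mfsd2a and Slco1c1, so that they could not be called. In the edgeR test 0 had an unadjusted p under 0.05 (6.07% of all genes). Slco2b1 stood 0.87 ± 0.91 (SE) higher on the log2 scale in KO (95% interval −1.09 to 2.84, adjusted p = 0.996), and 2.36 without the library labelled WT replicate 1. Slco1a4 differed by −0.99 ± 0.97 (−3.08 to 1.11, adjusted p = 0.996) and Slco1c1 by −0.81 ± 0.91, which turned to 0.22 without WT replicate 3. Leaving out single libraries, WT replicate 1 among them, moved the value of Slco1a4 between −1.46 and −0.72. The 95% intervals were narrow for Tfrc (−0.22 to 0.43) and Slc2a1 (−0.47 to 0.68), which leaves a change of more than 2-fold outside them, and wide for Mfsd2a (−1.75 to 2.37). Groups overlapped for every member, whereas 6.69% of all genes had KO above WT without overlap and 6.5% below. The median log2 difference of the 10 was 0.05, against −0.0063 over all genes tested. Pdcd10, the deleted gene, was not called in the edgeR test either (−1.56 ± 0.4, adjusted p = 0.42). That test includes the library labelled WT replicate 1, with Pdcd10 at 11.5 CPM against 31.2 and 47.0 in the other WT libraries. The absence of a call alone therefore does not exclude a change of that size.

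Under drug the genotype contrast gave no call either. With propranolol on both sides 0% of all genes were called, and with rapamycin on both sides 0%. DESeq2 also called no member in either, and 0 members had an unadjusted p under 0.05, against 6.19% and 5.72% of all genes. Slco2b1 had all KO libraries above all WT libraries in each of these comparisons (background for that direction 7.8% and 9.43% of all genes), by 2.3 ± 1.13 (adjusted p = 0.808) and 1.81 ± 1.1 (adjusted p = 1.0) on the log2 scale. The first value was 1.04 without KO+P replicate 3, and the second ran from 1.01 without WT+R replicate 2 to 3.81 without WT+R replicate 1. Slco1a4 stood at 0.08 ± 1.1 with propranolol on both sides, but was lower in KO+P in both pairs, by factors of 21.8 and 4.25. That difference was −2.3 without KO+P replicate 3, which has no WT+P partner, 1.68 without WT+P replicate 2, and −0.93 ± 1.01 with the replicate number as a block (adjusted p = 0.732). With rapamycin on both sides it was −0.1 ± 1.06, and 0.13 without WT+R replicate 1. Pdcd10 itself was not called by edgeR under propranolol (−1.68 ± 0.44, adjusted p = 0.481) or rapamycin (−2.21 ± 0.44, adjusted p = 0.194).

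With propranolol no member passed the threshold in WT cells (0.00674% of all genes called) or in KO cells (0.00674%), and DESeq2 called 0 in both, but left Mfsd2a in KO cells without an adjusted p (3.42, unadjusted p = 0.000288), so that it could not be called there. An unadjusted p under 0.05 was reached by 3 members in WT+P against WT (9.87% of all genes) and 1 in KO+P against KO (12.6%). Mfsd2a had the largest difference, 3.33 ± 0.96 on the log2 scale in WT+P against WT (unadjusted p = 0.00412, adjusted p = 0.338) and 3.39 ± 0.89 in KO+P against KO (unadjusted p = 0.00229, adjusted p = 0.246). It was higher in 5 of 5 pairs and the groups did not overlap in either genotype, which held for 10.8% and 9.58% of all genes in that direction. Without KO+P replicate 3, the lowest of the propranolol libraries, the KO difference was 3.86 with an adjusted p of 0.0383. These values of Mfsd2a are a description and no support, since it entered the test through the propranolol libraries. Slc16a1 was 0.94 ± 0.38 higher in WT+P (unadjusted p = 0.0292, adjusted p = 0.475) and 0.54 ± 0.35 higher in KO+P (adjusted p = 0.531). That value rested on replicate 1: it was −0.0042 without WT+P replicate 1, and 1.51 (adjusted p = 0.0357) without WT+P replicate 2.

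In the other direction, Slco2b1 differed by −2.5 ± 1.14 in WT+P (unadjusted p = 0.0474, adjusted p = 0.499) and −1.07 ± 0.91 in KO+P (adjusted p = 0.634), and the WT value was −1.01 without the library labelled WT replicate 1. Slco1a4 differed by −1.9 ± 1.16 in WT+P (adjusted p = 0.599) and −0.83 ± 0.98 in KO+P (adjusted p = 0.743), the latter being −3.21 without KO+P replicate 3. Both genes had all WT+P libraries below all WT libraries, as did 10.3% of all genes. In KO+P, 7 of the 10 members (Slc2a1, Slco1a4, Slco2b1, Abcb1a, Abcg2, Abcc4 and Tfrc) lay below the untreated library in each of the 3 pairs, where 26.5% of all genes did. Their differences were small for the abundant genes, −0.4 ± 0.27 for Slc2a1 and −0.2 ± 0.15 for Tfrc. In WT+P the same held in both pairs for 5 of 10 (31.2% of all genes). The median difference of the members was −0.33 in KO and −0.28 in WT cells, against −0.0065 and 0.0036 for all genes. The summed endothelial markers were lower as well with propranolol in 5 of 5 pairs (6371 to 9736 TPM against 9156 to 12491), with a median log2 difference of −0.41 in KO and −0.61 in WT cells. The summed mural markers were higher in 4 of 5 pairs (114 to 1548 TPM against 61.7 to 915), a sum that is mostly Tagln and Acta2. The median log2 difference of the 7 mural markers tested went the other way, with −0.58 in KO and −0.12 in WT cells. The part of either list in the members' values was not tested.

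**Figure D3:**
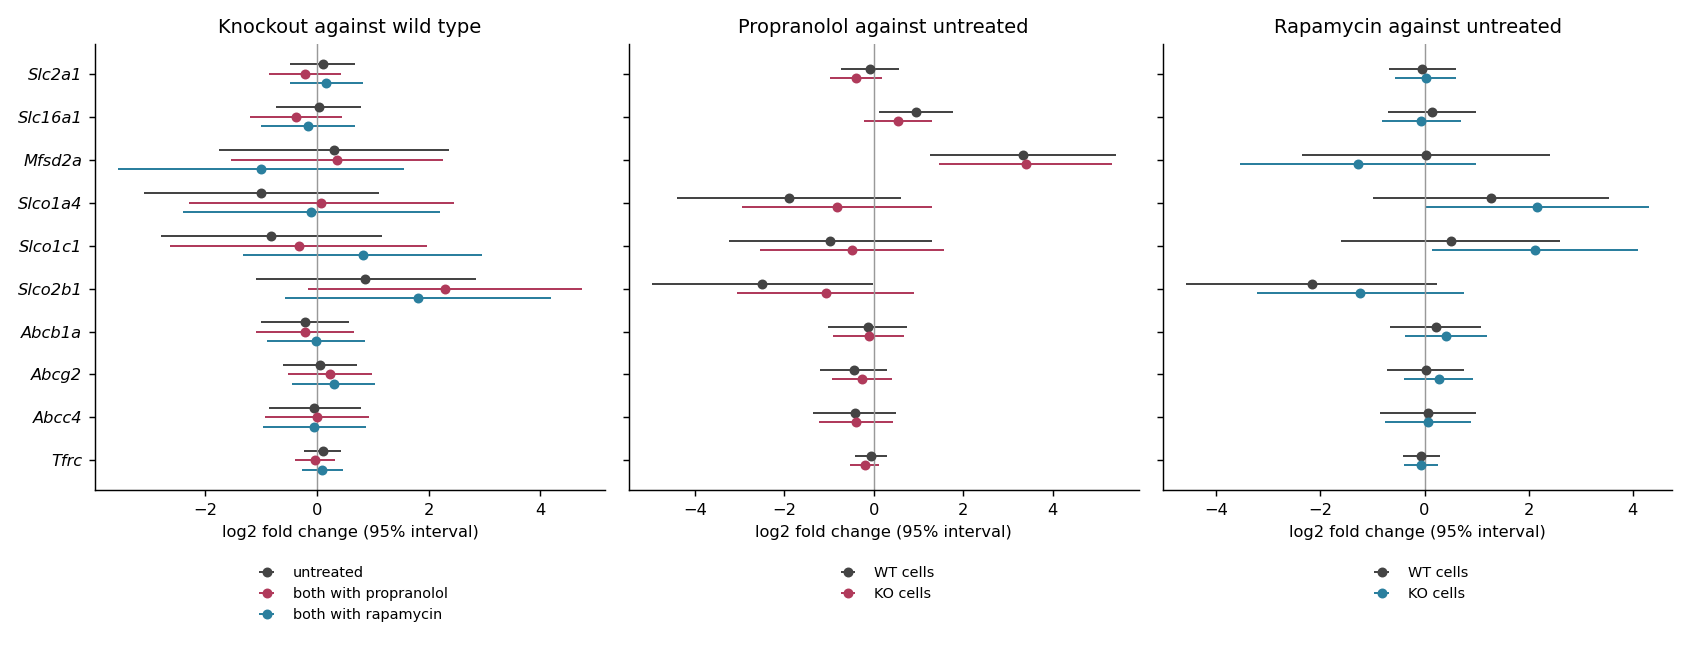
Points give the log2 fold change of each transport gene from the edgeR fit, and lines its 95% interval, for KO against WT (left), propranolol against untreated (middle) and rapamycin against untreated cells (right). Mfsd2a lies above 0 with propranolol in both genotypes, Slco1a4 above and Slco2b1 below 0 with rapamycin, and most intervals span 0.

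Rapamycin likewise gave no call among the 10, while 1.51% of all genes were called in KO+R against KO and 1.4% in WT+R against WT, and DESeq2 called 0 members in both. An unadjusted p under 0.05 was found for 2 members in KO+R (12.5% of all genes) and 0 in WT+R (12.6%). Slco1a4 was 2.17 ± 1.0 higher on the log2 scale in KO+R (95% interval 0.01 to 4.32, unadjusted p = 0.0491, adjusted p = 0.394) and 1.28 ± 1.05 higher in WT+R (adjusted p = 0.711). The groups did not overlap in either genotype, and 10.9% and 14% of all genes were separated in that direction. A fit of the KO+R and KO libraries alone gave 2.19 with an adjusted p of 0.0421. Slco1c1 was 2.13 ± 0.91 higher in KO+R (unadjusted p = 0.0368, adjusted p = 0.346), a value that was 0.98 without KO+R replicate 3. Slco2b1 was lower with rapamycin in 5 of 5 pairs, by −1.24 ± 0.92 in KO (adjusted p = 0.663) and −2.17 ± 1.12 in WT cells (adjusted p = 0.463), the latter being −0.68 without the library labelled WT replicate 1. Abcb1a was higher in 5 of 5 pairs, by 0.42 ± 0.37 in KO and 0.22 ± 0.41 in WT cells, the latter being −0.51 without WT+R replicate 1. Of all genes, 31.2% in KO and 37.7% in WT cells were lower with rapamycin in every pair, and 25.1% and 33.5% were higher. Slc2a1 (0.02 ± 0.27 in KO, −0.05 ± 0.3 in WT) and Tfrc (−0.07 ± 0.15, −0.06 ± 0.17) had 95% intervals within 1 log2 unit of 0. The summed endothelial markers were lower with rapamycin in 5 of 5 pairs (7461 to 9395 TPM), while the median log2 difference of the 12 was −0.03 in KO and −0.35 in WT cells. Single markers stood the other way, such as Emcn, an endothelial sialomucin, with 1242 to 1422 CPM in KO+R against 974 to 1135 in KO and 1894 to 1927 in WT+R against 1051 to 1128 in WT. The summed mural markers were higher in 5 of 5 pairs (254 to 2584 TPM against 61.7 to 915), and of these Acta2 rose in WT+R against WT (2.74 ± 0.61, adjusted p = 0.0469). The part of these markers in the members' values was not tested.

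The 2 drugs were then set against each other, a contrast whose libraries also enter the comparisons above. In KO cells Mfsd2a was called, lower in KO+R than in KO+P by −4.66 ± 1.0 on the log2 scale (95% interval −6.82 to −2.5, adjusted p = 0.0209, lower in 3 of 3 pairs), where 4.08% of all genes were called, 2.51% lower. DESeq2 called it too (adjusted p = 0.000464) and no other member. This call is a description and no support, since Mfsd2a entered the test through the propranolol libraries. The groups did not overlap for Mfsd2a, as for 13.9% of all genes in that direction, and 3 members had an unadjusted p under 0.05, against 21.1% of all genes. The fold is uncertain, since the KO+R libraries held 0, 4 and 1 counts, and the call was lost without KO+P replicate 1 (adjusted p = 0.0723), KO+P replicate 2 (0.071), KO+R replicate 1 (0.0731) or KO+R replicate 3 (0.0917). Slco1a4 was 3.0 ± 1.04 higher in KO+R (adjusted p = 0.117) and Slco1c1 2.62 ± 0.95 higher (adjusted p = 0.134). Without KO+P replicate 3 Slco1a4 was called (5.38, adjusted p = 0.0094), and without KO+R replicate 3 the difference of Slco1c1 was 1.47. Neither overlapped between the groups, which held for 11.7% of all genes in that direction. With the replicate number as a block Slco1a4 was called (3.63 ± 0.89, adjusted p = 0.0223) beside Mfsd2a (−4.56 ± 0.94, adjusted p = 0.00979), where 9.62% of all genes were called. Slco1c1 (2.34 ± 0.72, adjusted p = 0.0503), Abcb1a (0.54 ± 0.17, adjusted p = 0.0534) and Abcg2 (0.56 ± 0.18, adjusted p = 0.055) lay just outside the threshold of that fit. In all, 7 of 10 members were higher in KO+R than in KO+P in each of the 3 pairs, where 25.5% of all genes were.

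In WT cells the same contrast gave no call (1.31% of all genes called), in edgeR or in DESeq2, and 2 members had an unadjusted p under 0.05 (15.1% of all genes). Mfsd2a differed by −3.3 ± 1.12 (adjusted p = 0.177) and Slco1a4 by 3.18 ± 1.28 (adjusted p = 0.262), both without overlap of the 2 groups of 2 libraries, which held for 19.4% of all genes in the lower and 17.5% in the higher direction. The response to a drug was also compared between genotypes directly. No member had an adjusted p under 0.05 for the interaction of propranolol or rapamycin with genotype (0% and 0% of all genes), 0 had an unadjusted p under 0.05 (0.721% and 0.762% of all genes), and DESeq2 called 0. For Mfsd2a the propranolol interaction was 0.05 with a 95% interval of −3.34 to 3.45, and for Slco1a4 the rapamycin interaction was 0.89 (−2.24 to 4.01), intervals too wide to tell equal from unequal responses.

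How the members varied was divided between replicate number and group. Over the 16 libraries the group held 79.1% of the variance of log2 CPM for Mfsd2a, 63.8% for Slco1a4 and 54.5% for Slco2b1, while replicate number held 75.5% for Abcc4, 62.6% for Abcb1a, 52.1% for Abcg2 and 44.4% for Slc2a1. The medians over all genes tested were 44.7% for group and 23.4% for replicate number. Drug alone held 77.8% for Mfsd2a and 58.8% for Slco1a4 (median of all genes 25.6%), and genotype at most 27.6%, for Slco2b1 (median 5.42%). The share of Mfsd2a is a description only, since it entered the test through the propranolol libraries. Across the 16 libraries, log2 CPM of Mfsd2a and Slco1a4 had a Pearson r of −0.84 and a Spearman rho of −0.76, and of Abcb1a and Abcc4 an r of 0.89, descriptions that share libraries, groups and replicate numbers.

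**Figure D4:**
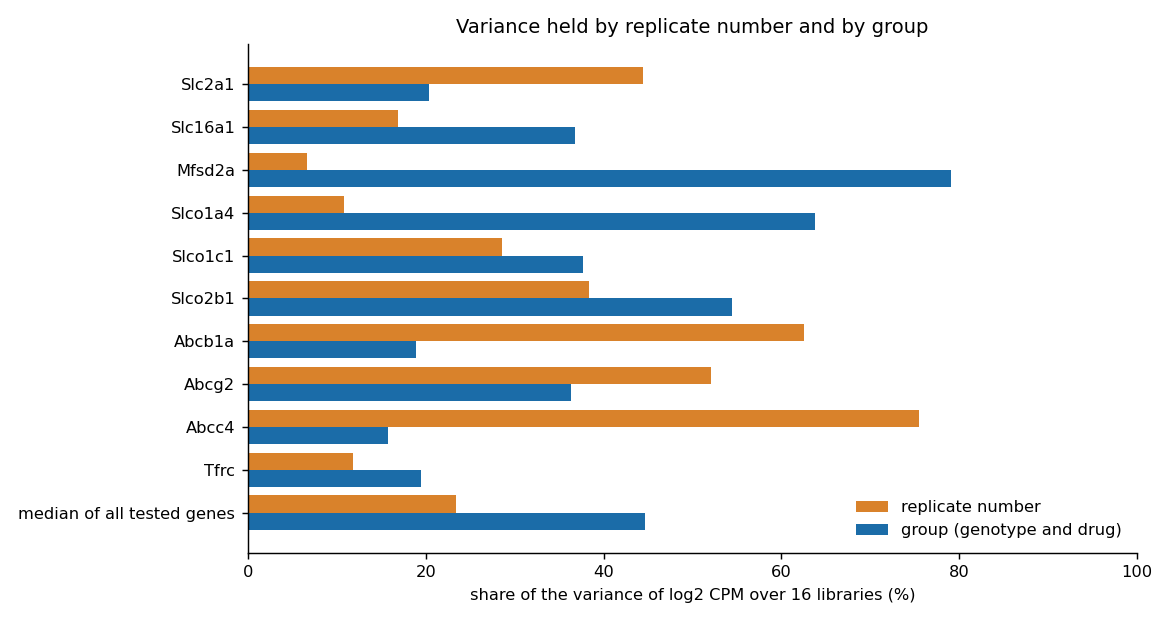
Bars give the share (%) of the variance of log2 CPM over the 16 libraries that replicate number and group each hold, for the 10 transport genes and as the median of all genes tested. Group exceeds replicate number for Mfsd2a, Slco1a4, Slco1c1, Slco2b1, Tfrc and Slc16a1, and replicate number exceeds group for the 3 pumps and Slc2a1. The shares were computed separately and group has more levels. Both bars of Tfrc and of Slc16a1 lie below the medians of all genes.

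Several members had counts assigned to transcripts that do not encode the protein. For Slc2a1, ENSMUST00000174372.3, annotated as a target of nonsense-mediated decay, held 22.7 to 55.3% of the counts. For Abcb1a a retained-intron transcript held 26.3 to 67.6%, and for Tfrc 32.8 to 79.1%. In all 3 genes the 3 libraries with the highest share were KO, KO+P and KO+R replicate 1, with 44.3, 55.3 and 54.8% for Slc2a1, 60.7, 66.4 and 67.6% for Abcb1a, and 68.3, 79.1 and 78.0% for Tfrc. These shares are Salmon's division of reads between overlapping transcripts, and over all genes protein-coding transcripts held 91.9 to 93.4% of the counts. Counting coding transcripts alone left the same single call among the members (Mfsd2a in KO+R against KO+P, −6.6, adjusted p = 0.0244). The 2 coding transcripts of Abcc4 exchanged counts between libraries, the longer with 21.0 to 100.0%.

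**Figure D5:**
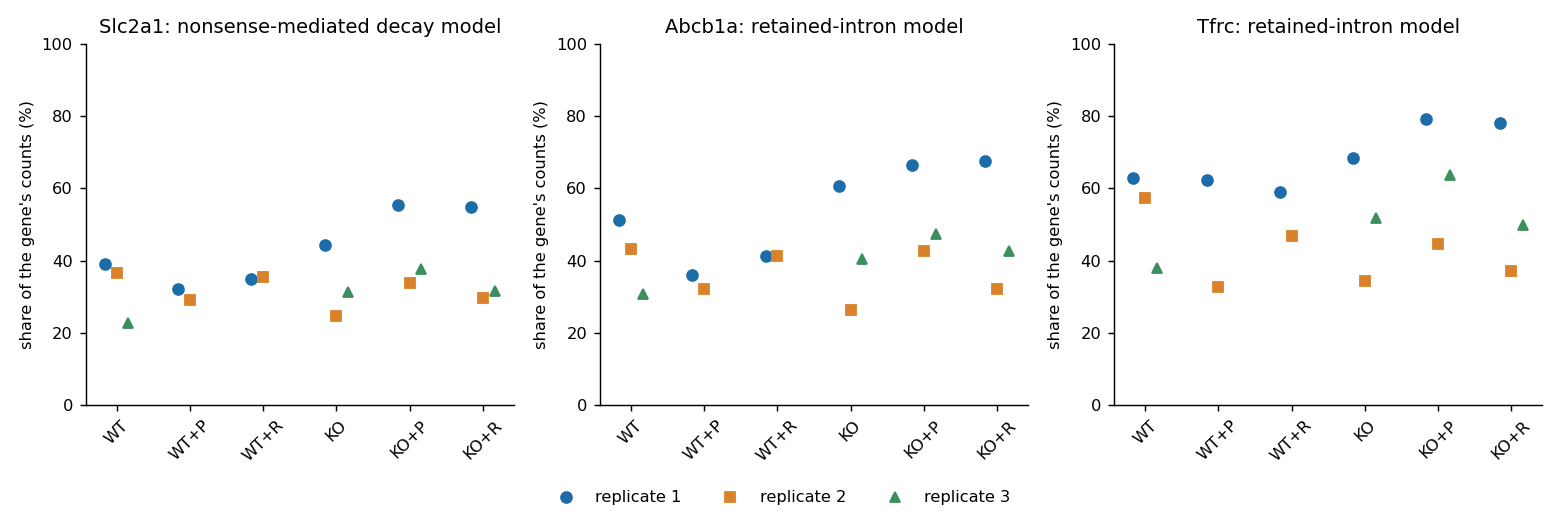
Points give, for each library, the share (%, axis 0 to 100) of a gene's counts that Salmon assigned to a transcript not annotated as protein-coding, for Slc2a1, Abcb1a and Tfrc, by group and replicate number. Replicate 1 of KO, KO+P and KO+R is highest in each panel.

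Other transport genes were counted from lists. Of 40 further solute carriers of brain endothelium, 38 were tested, and 1 rose and 3 fell in KO+R against KO, where 1.51% of all genes were called. Slc12a2, the sodium-potassium-chloride cotransporter NKCC1, rose by 0.7 ± 0.11 on the log2 scale (70.3 to 88.1 CPM in KO, 120 to 136 in KO+R, adjusted p = 0.0094) and also in WT+R against WT (0.62 ± 0.12, adjusted p = 0.0264). Slc7a5, the large neutral amino acid carrier LAT1 that brings levodopa into the brain, fell by 1.56 ± 0.34 in KO+R (87.3 to 100 CPM in KO, 24.4 to 36.0 in KO+R, adjusted p = 0.0405) and by 1.78 ± 0.4 in WT+R (adjusted p = 0.0481). The glutamine carrier Slc1a5 (−1.21 ± 0.25, adjusted p = 0.0289) and Slco4a1, a further organic anion carrier (−2.97 ± 0.63, adjusted p = 0.036), fell in KO+R. In KO+R against KO+P, 2 of the 38 were higher and 8 lower, where 4.08% of all genes were called. The largest of these differences were those of Slc7a3 (−4.91 ± 1.01, a carrier of cationic amino acids), Slc6a9 (−4.23 ± 0.76, a glycine carrier with 33.8% of its exonic bases shared with other genes), Slc7a5 (−2.99 ± 0.36), its heavy chain Slc3a2 (−2.26 ± 0.57, 15.9% shared) and Slc1a5 (−1.93 ± 0.25). The higher genes there were Slc44a1, a choline carrier (1.25 ± 0.25), and Slc12a2 (0.8 ± 0.11). In WT+R against WT+P, Slc12a2 was higher and Slc7a5 lower. No gene of this list was called by edgeR in KO against WT (5 with an unadjusted p under 0.05, 1 called by DESeq2), KO+P against KO (14 and 7) or WT+P against WT (11 and 4). Over all genes tested an unadjusted p under 0.05 was found for 6.07%, 12.6% and 9.87% in these comparisons, and DESeq2 called 64, 164 and 119 genes. Its median log2 difference was −0.07 in KO+R against KO, beside −0.02 for all genes.

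Of 17 other ABC transporters, 16 were tested and 0 were called by edgeR in any comparison, where up to 4.08% of all genes were called. In each of the 9 contrasts 1 to 3 had an unadjusted p under 0.05, against 5.72% to 21.1% of all genes. DESeq2 called 1 in WT+R against WT (3.88% of all genes) and 2 in KO+R against KO+P (8%). Of 20 genes of receptor-mediated transport and vesicles, 19 were tested. Vldlr, a receptor of apolipoprotein E and reelin, fell in KO+R (−1.49 ± 0.33, adjusted p = 0.0402) and WT+R (−1.98 ± 0.38, adjusted p = 0.0254).

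Of 18 genes of cellular iron handling, the surroundings of Tfrc, 17 were tested. Steap4, a ferrireductase, had 0 counts in all 5 rapamycin libraries against 101 summed counts in KO, at least 29.6-fold lower in KO+R taking a floor of 3 counts over the group (adjusted p = 0.0316). Hmox1, haem oxygenase, was lower in KO+R than in KO+P (−2.48 ± 0.52, adjusted p = 0.0191). Of 24 partners and regulators of the members, 21 were tested. Srebf2, the regulator of sterol synthesis and uptake, was lower in KO+R than in KO+P (−0.98 ± 0.17, adjusted p = 0.00895). In KO against WT edgeR called 0 genes of these 5 lists (0.00674% of all genes). An unadjusted p under 0.05 was found for 1 to 5 of each (6.07% of all genes). DESeq2 called 1 solute carrier and 1 regulator (0.511% of all genes). With propranolol edgeR also called 0 genes of the 5 lists in either genotype (0.00674% of all genes in each). Of each list 1 to 14 had an unadjusted p under 0.05 (12.6% of all genes in KO and 9.87% in WT cells). DESeq2 called 0 to 7 of each (1.28% and 0.889% of all genes).

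Genes whose log2 CPM ran most like that of a member over the 16 libraries were listed as a description, at Pearson's r. For Mfsd2a they were Map9 and Aldh18a1 (0.97 each), for Slco1a4 E230032D23Rik (0.96) and Atrnl1 (0.95), and for Slc16a1 Usp36 (0.97) and Kat7 (0.96). Aldh18a1, an enzyme of proline synthesis, ranged from 19.8 to 121 CPM. For Abcg2 they were Lfng and Rras2 (0.96 each), for Abcc4 Gm16565 (0.95) and Eps15l1 (0.94), for Abcb1a Atxn2 (0.92) and Bag6 (0.91), and for Slco2b1 Dgkz and Naa60 (0.92 each). The closest were less alike for Slc2a1 (Faap100, 0.85), Tfrc (Gm26648, 0.84) and Slco1c1 (Tmem38b, 0.77).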

How the data were processed

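RNA-seq of 16 mBMEC libraries (poly(A), unstranded, paired-end) was analysed; groups came from the sample labels. The expected counts and TPM values per transcript were deposited by the authors in Salmon format (Salmon 1.5.2 and GRCm39 per the submitters' processing notes; the study's methods describe STAR and HTSeq 0.13.5 instead, and the transcript index was not given in the sources used here). Expected counts were not normalised between libraries. Of 140789 transcripts, 139544 had an entry in GENCODE (GRCm39). Counts were summed per gene and rounded; a gene's sum includes non-coding transcripts, and unstranded reads cannot separate overlapping genes. Depth was 18.83 to 26.2 M counts, and the biological coefficient of variation was 32.3%, so spread between cultures limits precision for all but the lowest genes. edgeR 4.0.16 (R 4.3.3; TMM, filterByExpr, 14838 of 27228 genes) fitted all 6 groups in a single quasi-likelihood model (10 residual degrees of freedom), with 9 contrasts and 2 interactions; the SE is the log2 difference divided by the square root of F. Calls required an adjusted p (Benjamini-Hochberg) under 0.05 and, except for interactions, a fold above 1.5. DESeq2 1.42.0, a replicate block, other scaling, no filter, a length offset and leaving out each library were alternatives. The script was tested on simulated data. Same-numbered libraries correlated at 0.19 or more in every comparison. Over all 36 same-number pairs the range was 0.03 to 0.69, and for different numbers −0.69 to 0.4. The numbers were read as pairs from these values and not from the labels. The main model leaves this pairing out. With the replicate block the biological coefficient of variation was 19%. Replicates were independent cultures. The genes named were the 10 members, Pdcd10, the called genes of the transport lists (up to 5 rises and 5 falls a comparison) and the 2 most alike genes per member. Some called genes of these lists are not reported here. Members and lists were chosen with earlier results of these data known. Promoters and iron-responsive elements were read from the GRCm39 genome.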

Additional observations from a re-analysis of the deposited data

How the results depend on the processing

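The counts of members called kept their value or stayed within 1.5 times in 167 of 180 alternatives. Only KO+R against KO+P had a count above 0, and a repeated 0 elsewhere says little about precision. The 11 differences of single members kept their side of the threshold and direction in 153 of 167. In KO+R against KO+P, 1 member was called, and 2 with the replicate block in edgeR. With the block in DESeq2, 3 were called (Mfsd2a, Slco1a4 and Slco1c1), where 12.1% of all genes were. With the block and the library labelled WT replicate 1 left out, 2 were called (a setting chosen after seeing the data). The fit of these groups alone called 0, but Mfsd2a was not tested in that fit. Leaving out single libraries gave 0 to 2. In KO+R against KO, 0 were called and 1 (Slco1a4) when the groups were fitted alone. In WT+R against WT+P, 0 were called and 1 (Mfsd2a, −3.65, adjusted p = 0.0265) with the block in DESeq2, where 8.89% of all genes were called. Leaving out single libraries gave 0 to 1 call in KO+P against KO and in WT+P against WT. Slc16a1 in WT+P against WT changed from 0.94 to −0.0042 without WT+P replicate 1 and ranged up to 1.51 without WT+P replicate 2. Over all genes, the block raised calls from 1 to 27 in KO against WT, 1 to 21 in KO+P against KO, 1 to 12 in WT+P against WT, 224 to 739 in KO+R against KO, 207 to 677 in WT+R against WT, 606 to 1428 in KO+R against KO+P and 194 to 731 in WT+R against WT+P, and DESeq2 without it gave 64, 164, 119, 473, 542, 1117 and 635. DESeq2 with the block gave 396, 933, 157, 1123, 978, 1800 and 1243 in the same order. The replicate block changed no other call among the members. The causes of these differences were not tested. DESeq2 gave no p for some members, Slco1a4 in KO+R against KO+P among them, and these were left out. At 0 to 8 counts outside the propranolol libraries, the fold of Mfsd2a is imprecise.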
